A study of Mus musculus with 6 samples.

Results

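The 10 genes described here, Snrpn, Peg3, Kcnq1ot1, Mest, Peg10, Plagl1, Grb10, Airn, Impact and Slc38a4, are imprinted genes of the mouse whose controlling region receives its methylation in the oocyte. They were chosen by name, as 10 of the 34631 protein-coding and long non-coding genes with GRCm38 coordinates, and each was read over its whole span with 5000 bp to each side. The assay was reduced representation bisulfite sequencing, in which a digested genome is enriched for CpG-rich fragments before conversion and reading. It was run on 6 cultured mouse lines, which all belong to the OG2 strain. The lines were induced pluripotent stem cells (iPSC, 2 lines), germline-derived pluripotent stem cells (gPSC, 2 lines), germline stem cells (GSC, 1 line) and embryonic stem cells (ESC, 1 line). The series title asks whether cells reprogrammed with transcription factors keep an epigenetic memory. The labels name no treatment, time or age. GSC and ESC were each a single line, so nothing could be tested against either, and expression of cell type markers was not measured in these data.

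An imprinted gene is expressed from 1 parental copy because the other copy carries methylation laid down in the parent's germ cells. At maternally methylated loci the oocyte adds the mark, the sperm copy lacks it, and the embryo keeps it with the zinc finger protein ZFP57, which binds the methylated hexamer TGCCGC and recruits the co-repressor TRIM28. Male germ cells erase these marks and do not put them back, while pluripotent cells made from an embryo normally carry them on the maternal copy.

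The values are differences in percentage points of methylation between a library and a reference. The tables leave that reference unnamed, and it is taken here to be ESC, the sample with no table. A position with higher methylation than the reference is called hyper below and one with lower methylation hypo. The tables hold called positions only, at 25 points or more and a q-value of at most 0.01, and give neither levels nor coverage. The depth is therefore unknown, and a position missing from a table may have been unchanged or not measured. A difference in a bulk library also does not tell fewer methylated cells from partial methylation of every cell.

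Start regions of 5 genes are printed to show where listed positions fell and where they did not. They come from RefSeq (GRCm38.p6), run from 250 bases before to 50 after a start, and are written 5′ to 3′ on the strand of the gene. In the Grb10 and Igf2r sequences the capitals mark each CG that holds a listed position. Igf2r is included because the largest group of positions in the Airn window lay at its start. In the Plagl1, Mest and Snrpn sequences, which hold no listed position, the capitals mark TGCCGC or its reverse complement GCGGCA.
Grb10, outer start, minus strand, chr11:12037371-12037670: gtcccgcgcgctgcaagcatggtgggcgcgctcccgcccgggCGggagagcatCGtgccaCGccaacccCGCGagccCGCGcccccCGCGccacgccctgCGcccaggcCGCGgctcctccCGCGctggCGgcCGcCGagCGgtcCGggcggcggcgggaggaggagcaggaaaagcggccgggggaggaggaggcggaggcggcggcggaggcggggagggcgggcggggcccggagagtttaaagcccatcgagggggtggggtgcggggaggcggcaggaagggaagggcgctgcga
Igf2r, minus strand, chr17:12769657-12769956: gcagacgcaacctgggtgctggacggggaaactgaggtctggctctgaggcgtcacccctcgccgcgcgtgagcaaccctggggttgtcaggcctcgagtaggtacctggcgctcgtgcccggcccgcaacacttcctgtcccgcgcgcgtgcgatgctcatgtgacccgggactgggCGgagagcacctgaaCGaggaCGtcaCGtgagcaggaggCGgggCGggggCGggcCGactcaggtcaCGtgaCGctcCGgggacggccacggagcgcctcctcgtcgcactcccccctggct
Plagl1, plus strand, chr10:13090582-13090881: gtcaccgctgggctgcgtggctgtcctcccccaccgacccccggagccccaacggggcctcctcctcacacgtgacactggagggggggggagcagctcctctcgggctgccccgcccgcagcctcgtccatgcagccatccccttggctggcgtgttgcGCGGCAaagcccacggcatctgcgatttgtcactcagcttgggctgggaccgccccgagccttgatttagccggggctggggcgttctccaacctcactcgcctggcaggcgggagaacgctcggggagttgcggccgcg
Mest, inner start, plus strand, chr6:30737800-30738099: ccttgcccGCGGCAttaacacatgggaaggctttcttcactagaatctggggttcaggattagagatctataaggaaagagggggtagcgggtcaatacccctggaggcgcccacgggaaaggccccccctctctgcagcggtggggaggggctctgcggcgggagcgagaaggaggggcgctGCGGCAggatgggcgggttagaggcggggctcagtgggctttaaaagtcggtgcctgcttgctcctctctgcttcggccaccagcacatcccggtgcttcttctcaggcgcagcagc
Snrpn, inner start, minus strand, chr7:60005150-60005449: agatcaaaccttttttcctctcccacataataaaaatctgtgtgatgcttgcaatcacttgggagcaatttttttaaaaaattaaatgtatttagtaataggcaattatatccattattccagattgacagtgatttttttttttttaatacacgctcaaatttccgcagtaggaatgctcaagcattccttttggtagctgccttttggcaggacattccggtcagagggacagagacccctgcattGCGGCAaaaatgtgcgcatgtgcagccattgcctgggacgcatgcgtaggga
The Grb10 sequence holds 45 CG, of which 19 carried 36 listed positions, counting C and G apart. The Igf2r sequence holds 34 CG, of which 11 carried 15 listed positions. The Plagl1 sequence holds 26 CG, the Mest sequence 17 and the Snrpn sequence 7, beside a median of 7 over all RefSeq start regions. The letters CCGG, at which such libraries are usually digested, occur in all 5, with 4, 3, 2, 1 and 1 matches in the order printed, and in 52.8% of all start regions. TGCCGC or GCGGCA occurs once in the Grb10, Plagl1 and Snrpn sequences, at 2 sites in the Mest sequence, nowhere in the Igf2r sequence, and in 11.6% of all start regions.

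The member windows held 179 distinct listed positions in the 10 tables, and most of them were listed in a single library. Of the 179, 113 were listed in 1 library, 41 in 2, 11 in 3, 6 in 4 and 8 in all 5. Hyper positions outnumbered hypo positions in every library. iPSC 1 had 29 hyper and 16 hypo positions, iPSC 2 had 39 and 13, gPSC 1 had 39 and 19, gPSC 2 had 28 and 8, and GSC had 75 and 26. The tables differed in size. Those of GSC listed 255689 positions, while the totals of the pluripotent lines ran from 143525 (iPSC 1) to 168199 (iPSC 2). The counts were not scaled to these totals. Whether the larger GSC count goes beyond its larger total was not tested. The hypo share was 35.6% in iPSC 1 (Wilson 95% interval 23.2 to 50.2%), 25% in iPSC 2 (15.2 to 38.2%), 32.8% in gPSC 1 (22.1 to 45.6%), 22.2% in gPSC 2 (11.7 to 38.1%) and 25.7% in GSC (18.2 to 35.0%). Over all listed positions it was 17.6%, 21.8%, 18.0%, 12.8% and 17.1% in the same order, and in iPSC 2 and gPSC 2 that value lay within the interval of the members. These intervals cover counting error only and treat neighbouring positions as independent, which positions on the same reads are not.

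Much of the hypo count came from positions that sat beside a hyper position. Among pairs of listed positions 1 bp apart in the same library, 53 of 57 in the member windows (93.0%) had opposite directions, and 46 of these 53 summed to within 5 points of 0. Across the whole of the deposited data 77.3% of 93257 such pairs were opposite. Where a RefSeq start region gave the bases, 99.9% of listed positions fell on the C or the G of a CG. Of the member pairs whose bases were known in this way, 31 were the C and the G of the same CG, and 7, all in Grb10, were the G of a CG and the C of the next. All of these pairs had opposite directions. The share of member positions with an opposite one within 50 bp was 57.8% in iPSC 1, 19.2% in iPSC 2, 48.3% in gPSC 1, 11.1% in gPSC 2 and 48.5% in GSC, beside 18.97%, 19.1%, 21.3%, 15.2% and 17.1% over all tables. Without them iPSC 1 kept 16 hyper and 3 hypo positions, iPSC 2 kept 34 and 8, gPSC 1 kept 28 and 2, gPSC 2 kept 26 and 6, and GSC kept 47 and 5. The hypo share was then 15.8%, 19.05%, 6.67%, 18.8% and 9.62% in that order, beside 10.1%, 15.4%, 9.44%, 6.39% and 10.3% over all tables. What makes neighbouring C and G differ in sign was not tested.

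**Figure D1:**
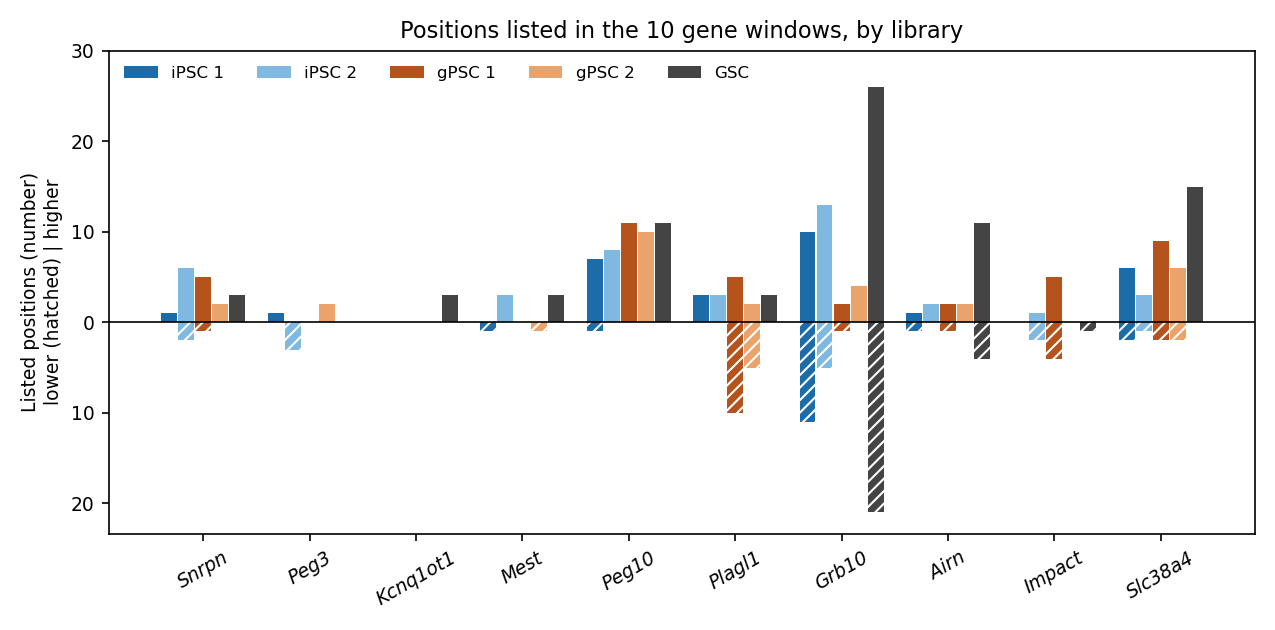
Number of listed positions in each of the 10 member windows (hyper above 0, hypo below 0) in each of the 5 libraries, against the reference. Grb10 held the most, with 26 hyper and 21 hypo positions in GSC, and Kcnq1ot1 held positions in GSC alone. Counts are not scaled to the size of the tables, which was largest for GSC.

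A window was called hyper or hypo in a library when it held at least 3 positions of that direction and they made up at least 80% of its listed positions there. Hyper calls were Peg10 and Plagl1 in iPSC 1 (2 of 10 windows, background 27.1% of all gene windows), Mest, Peg10 and Plagl1 in iPSC 2 (3 of 10, background 26.9%), Snrpn, Peg10 and Slc38a4 in gPSC 1 (3 of 10, background 29.8%) and Peg10 and Grb10 in gPSC 2 (2 of 10, background 36.0%). GSC had 6 hyper calls, Snrpn, Kcnq1ot1, Mest, Peg10, Plagl1 and Slc38a4, against a background of 40.4%. The sole hypo call was Peg3 in iPSC 2 (1 of 10, background 1.88%), and there was none in iPSC 1 (background 1.60%), gPSC 1 (1.25%), gPSC 2 (1.10%) or GSC (2.11%). In both lines of a kind, hyper calls were Peg10 and Plagl1 for iPSC (background 16.8%) and Peg10 for gPSC (22.0%), with no hypo call in either (0.188% for iPSC and 0.159% for gPSC). With 10 windows a library, the counts of hyper calls were not tested against their backgrounds. None of them, that of GSC included, is read as a departure from its background. Member windows had a median length of 61002 bp, against 25839.5 bp for the 27066 gene windows with a listed position, so they had more room for positions of both directions. With a q-value of at most 0.001 GSC had 3 hyper calls, Peg10, Plagl1 and Slc38a4, and iPSC 2 had no hypo call.

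Starts of the member genes were mostly without listed positions. RefSeq gives 16 distinct starts for 8 of the members, and 14 of these (87.5%) had no listed position within 1000 bp in any table, beside 55.4% of all RefSeq starts. Several starts belong to the same gene, and those of Mest at 30738050 and 30738053 nearly coincide. The starts are therefore not independent, and the shares were not tested against each other. Peg10 and Impact have no entry. The exceptions were the outer start of Grb10, with 71 listings over the 5 libraries, and the start of Plagl1, with 18. The nearest listed position was 20019 bp from the inner Snrpn start, 18809 bp from the Peg3 start, 30426 bp from the Kcnq1ot1 start, 1283 bp from a Mest start and 1066 bp from the Airn start. For the 8 members with an entry, most of the listings therefore lay more than 1000 bp from a RefSeq start, some by little. Some positions of Peg10, Impact, Peg3 and Airn are nevertheless labelled promoter in the deposited annotation.

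Peg10, which encodes a retrotransposon-derived protein needed for the placenta, held the most repeated hyper positions. All 16 of its positions lay in 1 cluster of 1057 bp (GRCm38 chr6:4755323-4756379), inside the gene (chr6:4747306-4760517). The deposited annotation labels all of them exon, and those from 4755795 onward promoter as well. They lay from 8017 to 9073 bp after the outermost start of the gene on its strand, and so not at that start. The mean difference over the listed positions of the cluster was 35.8 points in iPSC 1 (7 hyper, 1 hypo), 49.8 points in iPSC 2 (8 hyper), 58.1 points in gPSC 1 (11 hyper), 59.3 points in gPSC 2 (10 hyper) and 68.0 points in GSC (11 hyper). The largest difference was at position 4755446, with 35.6 points in iPSC 1, 91.1 in iPSC 2, 75.0 in gPSC 1, 84.5 in gPSC 2 and 89.5 in GSC, where the reference can have been methylated at 8.88% at most. Position 4755795 had 62.1, 60.4, 70.2, 70.3 and 86.1 points in the same order of libraries. GSC was highest at 4755795, while at 4755446 iPSC 2 was highest and iPSC 1 lowest. Averaged over the 5 positions listed in all libraries, the difference was 51.0 points in iPSC 1, 59.2 in iPSC 2, 65.5 in gPSC 1, 64.9 in gPSC 2 and 75.1 in GSC. The iPSC lines averaged 55.1 ± 5.77 points and the gPSC lines 65.2 ± 0.488 points (SD, n = 2 lines each), a difference of -10.1 points. The groups did not overlap in this average or at 4755345 and 4755795, but they did at 4755339, 4755446 and 4756054. The two-sided exact permutation test over lines gave p = 0.333, the smallest it allows, and an adjusted p of 1 over the 8 comparisons of this kind. The same test at the shared positions of Snrpn, Plagl1, Airn and Slc38a4 gave p of 0.667 or more. At positions listed in a line and in GSC, where the reference cancels, the median of line minus GSC was -24.0 points for iPSC 1 (lower than GSC at 5 of 5 positions) and -21.1 points for iPSC 2 (6 of 8). It was -11.8 points for gPSC 1 (7 of 9) and -7.00 points for gPSC 2 (5 of 7).

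**Figure D2:**
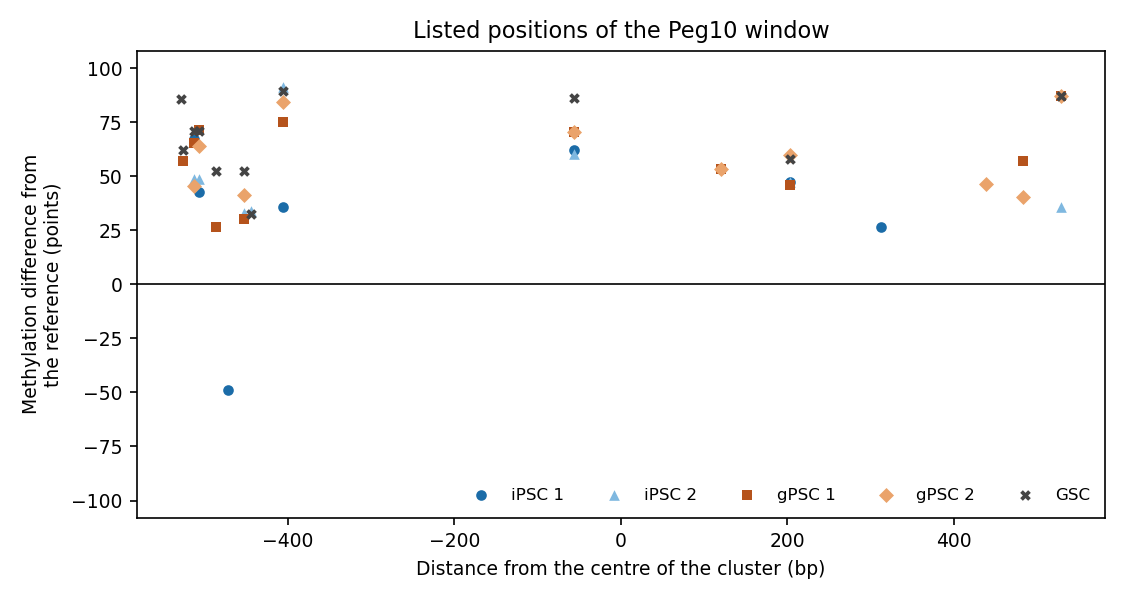
Methylation difference from the reference (points) at each listed position of the Peg10 cluster, against distance along it, by library. Nearly all points lie above 0, with 1 hypo position at -48.8 points in iPSC 1.

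Slc38a4, a transporter of neutral amino acids, held hyper positions in all 5 libraries and the most uniform ones in GSC. In GSC all 15 listed positions were hyper, between 53.0 and 100 points. The mean difference over the window (chr15:96989816-97060956) was 30.7 points in iPSC 1 (6 hyper, 2 hypo), 32.4 in iPSC 2 (3 and 1), 50.9 in gPSC 1 (9 and 2), 33.5 in gPSC 2 (6 and 2) and 79.4 in GSC. Position 97059074, upstream of the outer start, had 50.8 points in iPSC 1, 43.0 in iPSC 2, 55.2 in gPSC 1, 66.6 in gPSC 2 and 89.7 in GSC, with every line below GSC. Position 97050052 had 48.6, 30.5, 43.4, 69.8 and 70.2 points in that order, so that gPSC 2 and GSC were close to each other and above the rest. The base next to it was hypo in 3 lines, by -38.7 points in iPSC 1, -29.6 in gPSC 1 and -49.2 in gPSC 2. All 7 hypo listings of Slc38a4 lay 1 bp from a hyper one, and none was left after these were removed. At positions listed in a line and in GSC, the median of line minus GSC was -27.5 points for iPSC 1 (4 positions), -43.2 points for iPSC 2 (2), -19.4 points for gPSC 1 (6) and -11.7 points for gPSC 2 (4).

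**Figure D3:**
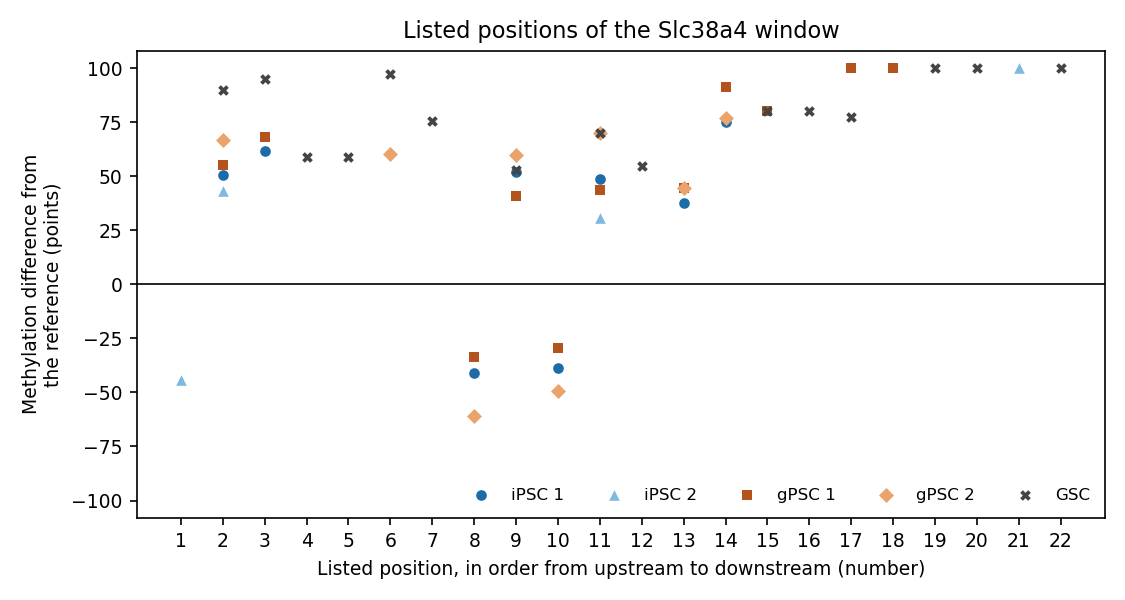
Methylation difference from the reference (points) at the 22 listed positions of the Slc38a4 window, numbered from upstream to downstream on the strand of the gene, by library. All 15 GSC points lie at 53.0 or above, and the hypo points are those of the pluripotent lines.

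Plagl1, a zinc finger transcription factor that restrains cell growth, had a positive window mean in both iPSC lines and a negative one in both gPSC lines. The means came from different positions, and no position was hyper in an iPSC line and hypo in a gPSC line. Its start cluster (chr10:13090893-13090974, 82 bp, overlapping the non-coding gene Hymai) held 13 positions, all listed in gPSC lines, and begins just after the printed Plagl1 sequence. gPSC 1 had 10 hypo positions there, averaging -39.7 points, and 3 hyper positions averaging 38.9 points, each 1 bp from a hypo one. gPSC 2 had 5 hypo positions, between -72.5 and -69.0 points, with the lowest q-value at 0.00497. Neither iPSC line nor GSC had a listed position in the cluster. At the 5 positions of gPSC 2, gPSC 1 had differences of -36.8 to -40.3 points, smaller in size than those of gPSC 2. The reference was methylated at 72.5% or more at 13090957 by these values. At the next base, 13090958, gPSC 1 was hyper by 40.3 points, which puts the reference at 59.7% at most. With such different bounds at neighbouring bases, no level of methylation is read from them. Farther along the gene an intron cluster (chr10:13108429-13108558) was hyper in GSC alone, with 90.3, 77.9 and 80.6 points. A cluster just beyond the gene end (chr10:13136042-13136229) was hyper in all 4 pluripotent lines. Its mean was 63.7 points for iPSC 1 (3 positions), 55.8 points for iPSC 2 (3), 79.9 points for gPSC 1 (2) and 56.5 points for gPSC 2 (2), and GSC had none. All iPSC positions of the Plagl1 window lay in this last cluster, so inside the gene itself neither iPSC line had a listed position. Hypo positions of Plagl1 were fewer in each iPSC line than in each gPSC line, which held for 2.63% of all gene windows. All 10 of gPSC 1 lay within 50 bp of an opposite position, and without such positions gPSC 1 had no hypo position, like both iPSC lines.

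**Figure D4:**
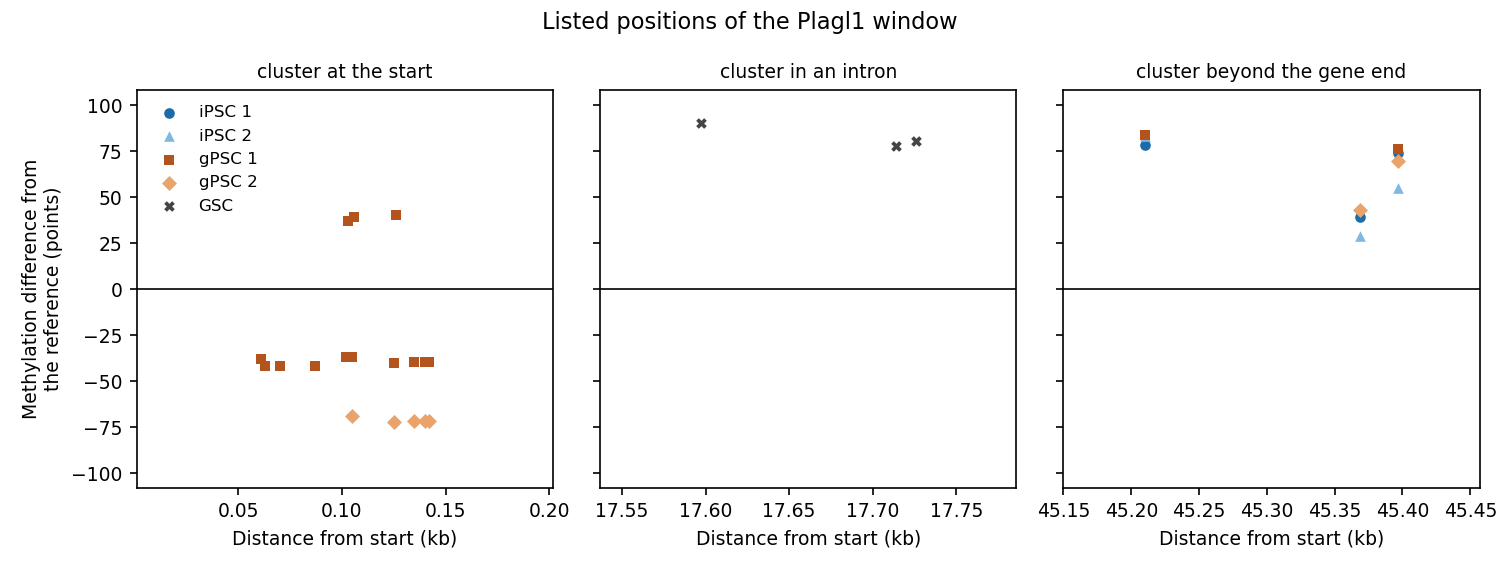
Methylation difference from the reference (points) at the listed positions of the 3 Plagl1 clusters, by library. The start cluster is hypo in both gPSC lines apart from 3 hyper positions in gPSC 1, the intron cluster is hyper in GSC and the cluster beyond the gene end is hyper in the 4 pluripotent lines.

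Grb10, an adaptor protein that dampens insulin and IGF receptor signalling, held 59 distinct positions, the most of any member, in 8 clusters. Its outer start drives the maternal copy in most mouse tissues, and an inner start drives the paternal copy in neurons. The cluster at the outer start (chr11:12037124-12038677, 43 positions) covers the first sequence printed above. iPSC 1 had 9 hyper positions averaging 27.9 points and 11 hypo positions averaging -28.1 points there. iPSC 2 had 9 averaging 44.1 points and 5 averaging -27.8 points, and GSC had 18 averaging 30.05 points and 18 averaging -29.6 points. gPSC 1 had a single hypo position of -30.7 points and gPSC 2 a single hyper position of 62.5 points. The signs split by base inside the printed sequence, with bases read here on the plus strand of the genome. In iPSC 1 the 9 hyper positions with a known base lay on C and the 10 hypo positions on G. In GSC 17 hypo positions lay on C and 18 hyper positions on G, and in iPSC 2 5 hypo lay on C and 4 hyper on G. Of the 34 opposite pairs 1 bp apart in the Grb10 window, 33 summed to within 5 points of 0. Leaving out positions within 50 bp of an opposite one left Grb10 with 1 hyper and 1 hypo position in iPSC 1, 9 and 1 in iPSC 2, 2 and 1 in gPSC 1, 4 and 0 in gPSC 2, and 8 and 4 in GSC.

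**Figure D5:**
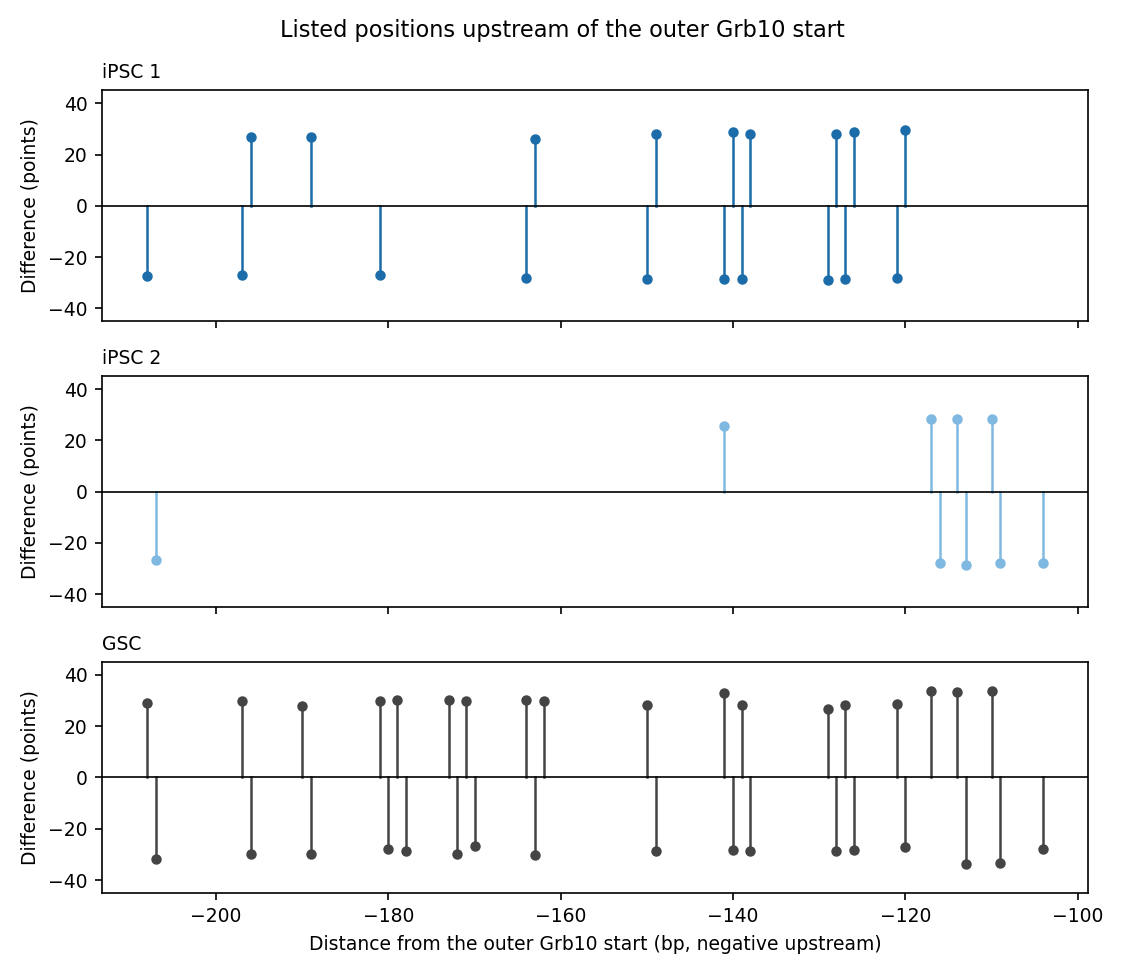
Methylation difference from the reference (points) at listed positions close to the outer Grb10 start, against distance from it, in iPSC 1, iPSC 2 and GSC. Points fall in bands near 30 and -30 points. The gPSC lines are not drawn, and positions of the cluster farther from the start are left out.

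Elsewhere in Grb10 the listed positions of the pluripotent lines were all hyper, and those of GSC went both ways. Near the inner start (chr11:12026767-12026845) GSC had 5 hyper positions with a mean of 43.2 points, iPSC 2 had 1 of 26.8 points and gPSC 2 had 1 of 28.6 points. Position 12011757 was hyper by 41.9 points in iPSC 1, 60.8 in gPSC 1, 68.1 in gPSC 2 and 80.6 in GSC, and was not listed in iPSC 2. A stretch farther from the inner start (chr11:12025412-12025562) held the opposite directions in different libraries, with a pair of positions at 100 points in iPSC 2 and others at -83.3 and -45.8 points in GSC. Each iPSC line listed more hyper positions of Grb10 than each gPSC line, which held for 4.10% of all gene windows. The same was true of its hypo positions, which held for 5.87%. Neither held once positions within 50 bp of an opposite one were left out. Peg10 had fewer hyper positions in each iPSC line than in each gPSC line, which held for 10.8%, and did so without such positions too. With 1 member of 10, this is not read as a departure from that share. Each iPSC table also listed fewer hyper positions in total (118235 for line 1, 131566 for line 2) than each gPSC table (135001, 139170). Without positions within 50 bp of an opposite one, Plagl1 had more hyper positions in each iPSC line than in each gPSC line. No share of all gene windows is given for that recount.

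Airn and Kcnq1ot1, long non-coding RNAs that silence neighbouring genes on the same copy, had few positions in the pluripotent lines. The main cluster of the Airn window (chr17:12769700-12769778) lay at the start of Igf2r, the receptor that clears IGF2 and that Airn silences. GSC had 10 hyper positions there, averaging 70.2 points and all on C of the plus strand, and 4 hypo positions of -66.7 points each, all on G and each 1 bp from a hyper one. gPSC 2 had 1 hyper position of 61.4 points, and iPSC 1, iPSC 2 and gPSC 1 had none. Farther into Airn, position 12832940 was hyper in all 4 pluripotent lines, by 77.4 points for iPSC 1 and 69.9 points for iPSC 2, and by 74.2 points for gPSC 1 and 71.8 points for gPSC 2, and was not listed in GSC. The reference was methylated there at 22.6% at most. Hypo positions in the pluripotent lines numbered 1 in iPSC 1, of -37.5 points at 12742377 nearest the Airn start, and 1 in gPSC 1, of -80.0 points at 12776136. Kcnq1ot1 had no listed position in any of the 4 lines. In GSC it had 3, each of 100 points and each in an intron by the deposited annotation. The reads of the reference were all unmethylated at them, but their number is unknown.

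Snrpn, a splicing protein of the brain, and Peg3 and Mest, a zinc finger protein and a hydrolase-fold protein, had scattered positions. At Snrpn, position 60172408 was hyper in all 5 libraries, by 63.9 points in iPSC 1, 97.2 in iPSC 2, 93.1 in gPSC 1, 89.5 in gPSC 2 and 95.4 in GSC. The reference was methylated there at 2.78% at most, and iPSC 1 stood below the other libraries. A pair of positions, 60068394 and 60068506, was hypo by -100 points in iPSC 2 alone, at q-values of 0.00147 and 0.00402. The reads of iPSC 2 were all unmethylated and those of the reference all methylated there, but their number is unknown. At Peg3 the largest cluster had a hypo position of -100 points in iPSC 2 and a pair of hyper positions of 100 points in gPSC 2. With 2 further hypo positions of -70.0 and -80.0 points, iPSC 2 had the 3 that made its hypo call, and gPSC 1 and GSC had no position in the window. iPSC 1 had the opposite direction there, with a single hyper position of 59.2 points at 6711610, the lowest q-value of the window (1.7e-19). Mest had hyper positions of 51.9, 34.0 and 100 points in GSC and of 96.2, 75.0 and 75.0 points in iPSC 2. iPSC 1 and gPSC 2 had 1 hypo position each at 30742891, of -26.8 and -29.3 points, and gPSC 1 had no position.

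Impact, a regulator of the amino acid sensing kinase GCN2, had positions in 3 libraries. gPSC 1 had 5 hyper and 4 hypo positions, of which 4 and 4 formed opposite pairs 1 bp apart, averaging 46.9 and -48.3 points. iPSC 2 had 1 hyper and 2 hypo positions, the largest in its cluster at -82.4 points, and GSC had 1 hypo position of -46.0 points. iPSC 1 and gPSC 2 had none.

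Summed or averaged over the members, no difference between the pluripotent kinds exceeded the spread between lines. Hypo positions averaged 14.5 ± 2.12 over the iPSC lines and 13.5 ± 7.78 over the gPSC lines (SD, n = 2 lines each), with an exact permutation p of 1. Hyper positions averaged 34.0 ± 7.07 over the iPSC lines and 33.5 ± 7.78 over the gPSC lines (exact permutation p = 1). For the 6 loci with positions in all 4 lines, Snrpn, Peg10, Plagl1, Grb10, Airn and Slc38a4, the mean of the locus means was 41.5 ± 8.37 points for iPSC and 38.0 ± 7.14 points for gPSC, a difference of 3.44 points (exact permutation p = 0.667). The tests were two-sided, each adjusted p over the 8 comparisons was 1, and 2 lines against 2 cannot give a p below 0.333. The sign of all 3 differences turned under some processing alternatives.

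The paternally methylated loci H19, Meg3 and Rasgrf1, whose mark is laid down in male germ cells, gave the opposite class of imprint for comparison. Upstream windows of these 3 loci together held 6 hyper and 0 hypo positions in iPSC 1, 9 and 0 in iPSC 2, 12 and 0 in gPSC 1, 11 and 0 in gPSC 2, and 12 and 1 in GSC. H19 had 4 hyper positions in GSC with a mean of 72.6 points. With 3 loci and windows of other lengths, the difference from the maternally methylated loci was not tested.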

How the data were processed

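Reduced representation bisulfite sequencing was done on 6 mouse lines, per the labels. Tools named, per the submitters' processing notes, were methylKit, GATK, Bowtie2 and Bismark, with the builds GRCm38 and mm10. How strands were handled, and any coverage minimum, is not given in the sources used here. For each of 5 libraries the authors deposited a table of higher and a table of lower positions, each position with a p-value, a q-value and a methylation difference in points. Tested on the tables, each q-value was at most 0.01 and each absolute difference at least 25. The reference library is not named and was taken to be ESC. Replicate lines have separate tables. Neither coverage nor levels are given, so the depth is unknown.

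Listed positions were counted per library and direction in windows of the GRCm38.p6 gene table, with Python 3.11.15, pandas 2.3.3 and scipy 1.17.1. Positions 500 bp or less apart formed a cluster. A difference of d points bounds the reference at 100 minus d percent or below where d is positive, and at the size of d or above where it is negative. The bounds hold for the methylation measured in the reads, whose number is unknown. The iPSC and gPSC lines were compared by two-sided exact permutation tests, with Benjamini-Hochberg adjustment over 8 comparisons, of which the 5 at positions listed in all 4 lines were added after seeing the data. The counting was tested on simulated data. Wilson 95% intervals cover counting error only.

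The members, gene lists, thresholds and tests were chosen with earlier results of these data known. By rule all 10 members are described, and single positions are named as the largest of a cluster; the other positions named were chosen after their values were seen. Genes of the other lists are named where called in GSC or in both lines of a kind, apart from Copg2 and from genes that share positions with a member. Alternatives were thresholds, windows, units counted, neighbouring opposite positions, lines left out and a replicate block. Averaging positions 1 bp apart, crossing the line numbers and recounting windows whose iPSC and gPSC counts do not overlap without positions near an opposite one were chosen after seeing the data.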

Additional observations from a re-analysis of the deposited data

Results flagged for a closer look

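Plagl1 stood out because its window mean was positive in both iPSC lines and negative in both gPSC lines. The mean difference from the reference over the listed positions of its window was 63.7 points for iPSC 1 and 55.8 points for iPSC 2, against -8.02 points for gPSC 1 and -34.8 points for gPSC 2. The iPSC mean of 59.7 ± 5.58 points exceeded the gPSC mean of -21.4 ± 18.97 points (SD, n = 2 lines each) by 81.2 points. The difference was not tested, and the listed positions differed: those of iPSC lay beyond the gene end, while most of those of gPSC lay at the start. Whether the iPSC libraries were read at the start is unknown. At the 1 position listed in all 4 lines, beyond the gene end, iPSC averaged 64.4 ± 13.3 points and gPSC 72.9 ± 4.39 points. Without positions within 50 bp of an opposite one the mean of gPSC 1 was 79.9 points, that of gPSC 2 stayed at -34.8 points, and the iPSC mean exceeded the gPSC mean by 37.2 points.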

How the results depend on the processing

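Of 45 recounts of hyper calls, 39 stayed within 1.5 times the count reported, and of 45 recounts of hypo calls 36 did. This compares counts only, and the windows called changed in some of them. At 50 points or more the hyper calls of iPSC 2 were Mest and Grb10, and without flanks Plagl1 was called hyper in neither iPSC line. Mest was called hyper in neither iPSC 2 nor GSC without flanks or in 100 bp bins. In GSC its call was also lost at 50 points or more and with positions 1 bp apart averaged. Hyper calls in iPSC 1 numbered 1 in the gene span without flanks and 4 when 1 position sufficed. In iPSC 2 they numbered 6 at a share of 60%, in gPSC 2 1 at a q-value of at most 0.001 and 5 when 1 position sufficed, and in GSC 3 at that q-value. Hypo calls in iPSC 2 numbered 0 at that q-value and 0 in 100 bp bins. When 1 position sufficed there was 1 hypo call in iPSC 1 (Mest), 1 in gPSC 2 (Mest) and 1 in GSC (Impact). At 60% there was 1 in gPSC 1 and 1 in gPSC 2, and gPSC 2 also had 1 at 50 points or more and 1 without flanks, each of these 4 at Plagl1. The cause of these changes was not tested.

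The difference of iPSC minus gPSC took the other sign in 18 of 38 recounts and was 0 in 3. For hypo positions it was 0 without positions 1 bp from an opposite one, -1.5 at 50 points or more, -2 at a q-value of at most 0.001, -7 without flanks (exact permutation p = 0.333) and 0 with positions 1 bp apart averaged. For hyper positions it was -0.5 without positions 1 bp from an opposite one, -2 without those within 50 bp, -5.5 at 50 points or more, -5.5 at a q-value of at most 0.001, -8.5 without flanks, -1 in 100 bp bins and 0 with positions averaged. For the mean it was -2.10 points without positions within 50 bp of an opposite one, -4.50 at that q-value and -4.65 without flanks. Leaving out a line gave -4.5 to 6.5 for hypo positions, -5 to 6 for hyper positions and -2.48 to 9.36 points for the mean. Hypo positions turned without iPSC 1 (-0.5) and gPSC 2 (-4.5), hyper positions without iPSC 2 (-4.5) and gPSC 2 (-5), and the mean without iPSC 2 (-2.48) and gPSC 1 (-1.61).

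The line numbers do not pair the samples by the labels, and deviations of same-numbered lines correlated at -0.122 over 54132 window counts. With the replicate block the differences were 1, 0.5 and 3.44 points, with exact p of 1, 1 and 0.5, the last the smallest that 2 pairs allow. With crossed numbers no p was below 1. Without levels or coverage, a locus with no listed position cannot be told from a locus not measured, so no statement on retained or lost imprints follows from the missing positions.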

Other observations

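Other maternally methylated loci, 16 found of a list of 17, had hyper calls in 6 windows in iPSC 1, 8 in iPSC 2, 8 in gPSC 1, 9 in gPSC 2 and 6 in GSC. Over all gene windows the share called hyper was 27.1%, 26.9%, 29.8%, 36.0% and 40.4% in that order. Calls in both lines were Cdh15, Zim3 and Usp29 for iPSC and Nnat, Inpp5f, Cdh15, Zim3, Usp29 and Sgce for gPSC, and calls in GSC were Nnat, Nap1l5, Cdh15, Usp29, Sgce and Kcnq1. Hypo calls were Magel2 in GSC (background 2.11%) and Copg2 in gPSC 2 (background 1.10%), the last named after its value was seen. The windows of Igf2r, Kcnq1 and Copg2 share 17, 3 and 2 distinct positions with those of Airn, Kcnq1ot1 and Mest. Sgce and Usp29 overlap the windows of Peg10 and Peg3 without sharing a listed position. The windows of Usp29 and Zim3 overlap each other, so their calls can rest in part on the same positions.

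Of 13 genes that maintain imprints, hyper calls numbered 3 in iPSC 1, 5 in iPSC 2, 2 in gPSC 1, 4 in gPSC 2 and 1 in GSC, against the same shares over all gene windows, with no hypo call. The counts in iPSC 1, gPSC 1, gPSC 2 and GSC were below those shares. Tle6, a subunit of the subcortical maternal complex of the oocyte, was called hyper in all 5 libraries, with 37 hyper positions and a mean of 51.6 points in GSC. Ctcf, the insulator protein, was called hyper in both iPSC lines and in gPSC 2. Rasgrf1, a paternally methylated locus, was called hyper in all 5 libraries, with means of 48.7 points in iPSC 1, 42.2 in iPSC 2, 54.9 in gPSC 1, 48.6 in gPSC 2 and 39.2 in GSC.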
